A study of Mus musculus with 11 samples.

Results

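Vascular endothelial growth factor (VEGF) signalling was read through 9 genes in embryonic mouse hearts with and without *Pde2A*. The 9 genes were the ligand genes *Vegfa*, *Vegfb*, *Vegfc* and *Pgf*, the receptor kinase genes *Flt1*, *Kdr* and *Flt4*, and the neuropilin genes *Nrp1* and *Nrp2*. They were chosen by name, with earlier results of these data known, and each symbol was matched through the GRCm38 annotation to 1 of the 55487 gene identifiers that were counted in the hearts. All 9 genes had at least 10 counts over the 11 hearts and were among the 24177 genes tested.

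Whole hearts were isolated at embryonic day 14.5 (E14.5) from 5 *Pde2A*-/- and 6 *Pde2A*+/+ embryos of the strain B6; 129P2-Pde2A<tm1Dgen>/H, and each heart gave 1 library. *Pde2A* encodes a phosphodiesterase that breaks down cAMP and cGMP, and the *Pde2A*-/- embryos carried the tm1Dgen allele on both copies in every cell. The embryos came from matings between heterozygous mice, were not treated with any drug and were taken from both sexes, and neither sex, litter nor batch was stated for a heart. The *Pde2A*-/- hearts were named A, B, 14, D and 15, and the *Pde2A*+/+ hearts 7, 11, 6, 8, H and E. Between 35865537 and 42835382 reads per heart lay on the strand of a single gene.

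VEGF ligands are secreted proteins that bind receptor tyrosine kinases on endothelial cells and drive the growth, survival and permeability of blood and lymphatic vessels. VEGFA acts mainly through KDR (VEGFR2), while FLT1 (VEGFR1) binds VEGFA, VEGFB and PGF tightly and signals weakly, so that it can act as a decoy. VEGFC acts through FLT4 (VEGFR3) on lymphatic vessels, and the neuropilins are co-receptors that also bind semaphorins. In the developing heart, VEGFA from the myocardium guides the formation of the cushions and of the coronary vessels.

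*Pde2a* itself could not be used to check the genotype labels. It had between 0 and 2 counts in every heart of either genotype, and in the annotation 64.3% of its exon bases are shared on the same strand with *Gm45837*, where STAR counts a read for neither gene. The exons of the 9 VEGF genes share no bases with another gene on their strand, except 0.818% of those of *Nrp1*.

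Of the 9 genes, 4 were higher in *Pde2A*-/- hearts at an adjusted p under 0.05 and 0 were lower, by the quasi-likelihood test of edgeR, adjusted after Benjamini and Hochberg. Across all genes tested, 8.93% were higher (2160 genes) and 5.67% lower (1372 genes) by the same rule. These numbers depend on single hearts and on the tool: the number lower was 450, 414 and 537 without *Pde2A*-/- heart 14, D or 15, 847, 599, 776 and 833 without *Pde2A*+/+ heart 7, 6, 8 or H, 2165 without *Pde2A*-/- heart A and 2354 with DESeq2. The number higher was 1408, 1288 and 1381 without *Pde2A*-/- heart 14, D or 15, and 2791 with DESeq2. After filterByExpr, edgeR called 2324 higher and 1884 lower of 16853 genes. With the naming of the hearts by letters or numbers as a covariate, 2354 were higher and 1598 lower. Without *Pde2A*-/- heart B 1955 were lower, and without *Pde2A*+/+ heart 11 1177. No gene of the 9 was lower at an unadjusted p under 0.05 either, and DESeq2 also called 0 lower. Shares of all genes at an unadjusted p under 0.05 are not given, here or below. The 4 genes that rose were 2 ligands, *Vegfa* and *Pgf*, and 2 receptor kinases, *Flt1* and *Flt4*. *Vegfa* was the 1 gene that also changed at least 2-fold, as 2.59% of all genes tested did in either direction. The 9 genes had a median log2 fold change of 0.15, against −0.02 among all genes tested. Since the hearts were measured whole, more cells of a type and more RNA per cell cannot be told apart.

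*Vegfa* (ENSMUSG00000023951, chr17:46016993-46032369, minus strand), the main angiogenic ligand, changed most of the 9. Values are given in CPM, normalized by the TMM method. It stood at 120.7 CPM in *Pde2A*-/- heart A, 182 in heart B, 285 in heart 14, 361 in heart D and 449 in heart 15, and in the *Pde2A*+/+ hearts its lowest value was 94.7, its median 103.2 and its highest 120.9. Hearts B, 14, D and 15 therefore lay above every *Pde2A*+/+ heart, while heart A lay just inside their range. The means were 279.5 ± 132.4 CPM (SD, n = 5) in *Pde2A*-/- and 106.5 ± 10.5 CPM (SD, n = 6) in *Pde2A*+/+ hearts. The highest *Pde2A*-/- heart held 3.72 times the value of the lowest, against 1.28 times among *Pde2A*+/+ hearts. The log2 fold change was 1.39 (SE, the standard error, 0.25, adjusted p = 0.00405), which was rank 532 among the rises of all genes tested. For this and every other gene, the fit shared the dispersion between the genotypes, so SE and p assume an equal relative spread. The SD of *Vegfa* was 47.4% of the mean in *Pde2A*-/- and 9.8% in *Pde2A*+/+ hearts.

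*Pgf* (ENSMUSG00000004791, chr12:85166635-85177790, minus strand) encodes placental growth factor, a ligand of FLT1, and was the least abundant of the 9 genes. Its counts per heart lay between 191 and 462. It was at 6.73 CPM in *Pde2A*-/- heart A, 5.67 in B, 9.06 in 14, 10.8 in D and 12.7 in 15, and in *Pde2A*+/+ hearts its lowest value was 5.23, its median 5.81 and its highest 6.61. Hearts 14, D and 15 stood well above the *Pde2A*+/+ range, heart A slightly above it, and heart B inside it. *Pgf* rose by 0.62 on the log2 scale (SE 0.18, adjusted p = 0.0353). With 1 heart removed at a time, the call was lost in 8 of 11 fits, those without *Pde2A*-/- heart 14, D or 15 or without *Pde2A*+/+ heart 7, 11, 6, 8 or E, with a log2 fold change between 0.46 and 0.74 over the 11 fits and the highest adjusted p at 0.102.

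*Vegfb* (ENSMUSG00000024962, chr19:6982473-6987651, minus strand), a ligand of FLT1 that is abundant in heart muscle, had 126.6 ± 8.58 CPM in *Pde2A*-/- and 127.1 ± 10.2 CPM in *Pde2A*+/+ hearts. The hearts of the genotypes overlapped throughout, from 113 to 136 against 110.4 to 140.1 CPM. Its log2 fold change was −0.01 (SE 0.06, adjusted p = 0.964), and its sign turned with the strand counted and with single hearts left out. *Vegfc* (ENSMUSG00000031520, chr8:54077606-54187096, plus strand), the ligand for lymphatic growth, had 19.1 ± 1.64 CPM in *Pde2A*-/- and 21.3 ± 2.26 CPM in *Pde2A*+/+ hearts. With a log2 fold change of −0.16 (SE 0.08, adjusted p = 0.221) it did not pass the test, and 1 *Pde2A*-/- heart was below all *Pde2A*+/+ hearts.

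*Flt1* (ENSMUSG00000029648, chr5:147561604-147726011, minus strand) encodes VEGFR1. It was at 103.9 CPM in *Pde2A*-/- heart A, 124.9 in B, 153 in 14, 165 in D and 200.3 in 15, while the *Pde2A*+/+ hearts had a lowest value of 82.3, a median of 93.5 and a highest value of 96.2. All 5 *Pde2A*-/- hearts lay above all 6 *Pde2A*+/+ hearts, and heart A was again the nearest to them. The means were 149.4 ± 37.1 CPM (SD, n = 5) and 90.9 ± 5.84 CPM (SD, n = 6). *Flt1* rose by 0.72 on the log2 scale (SE 0.13, adjusted p = 0.00389).

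*Flt4* (ENSMUSG00000020357, chr11:49609263-49652739, plus strand) encodes VEGFR3, found on lymphatic and on some sprouting blood endothelium. It was at 52.0 CPM in *Pde2A*-/- heart A, 56.7 in B, 69.5 in 14, 59.7 in D and 70.9 in 15, against a lowest value of 44.5, a median of 48.0 and a highest value of 51.0 in *Pde2A*+/+ hearts. The genotypes did not overlap, although heart A was close to the highest *Pde2A*+/+ heart. *Flt4* rose by 0.36 on the log2 scale (SE 0.08, adjusted p = 0.0101). *Flt1* and *Flt4* were the 2 of 9 genes with every *Pde2A*-/- heart above every *Pde2A*+/+ heart, a pattern that 5.38% of all genes tested had.

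*Kdr* (ENSMUSG00000062960, chr5:75932827-75978458, minus strand), the gene of the main signalling receptor VEGFR2, had 204.4 ± 4.33 CPM in *Pde2A*-/- and 188.2 ± 16.3 CPM in *Pde2A*+/+ hearts. The *Pde2A*-/- hearts lay close together, between 201.0 and 211.7 CPM, and within or just above the *Pde2A*+/+ range of 168.8 to 208.5 CPM. *Kdr* did not pass the test (log2 fold change 0.12, SE 0.06, adjusted p = 0.180).

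The neuropilin genes did not pass the test. *Nrp1* (ENSMUSG00000025810, chr8:128358604-128503363, plus strand), the co-receptor for VEGFA, had 204.5 ± 10.7 CPM in *Pde2A*-/- and 199.7 ± 9.08 CPM in *Pde2A*+/+ hearts (log2 fold change 0.03, SE 0.05, adjusted p = 0.689). *Nrp2* (ENSMUSG00000025969, chr1:62703285-62818695, plus strand), the co-receptor for VEGFC, was at 52.6 CPM in *Pde2A*-/- heart A, 44.8 in B, 70.5 in 14, 70.4 in D and 86.6 in 15, while *Pde2A*+/+ hearts ran from 48.9 to 64.3 CPM with a median of 59.0. Heart B was thus below and hearts 14, D and 15 above every *Pde2A*+/+ heart. The log2 fold change of *Nrp2* was 0.15 (SE 0.14, adjusted p = 0.507), and it was 0.03 without *Pde2A*-/- heart 15 and 0.26 without *Pde2A*-/- heart B; that of *Nrp1* ran from 0.01 without *Pde2A*-/- heart B to 0.06 without *Pde2A*-/- heart 14.

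**Figure D1:**
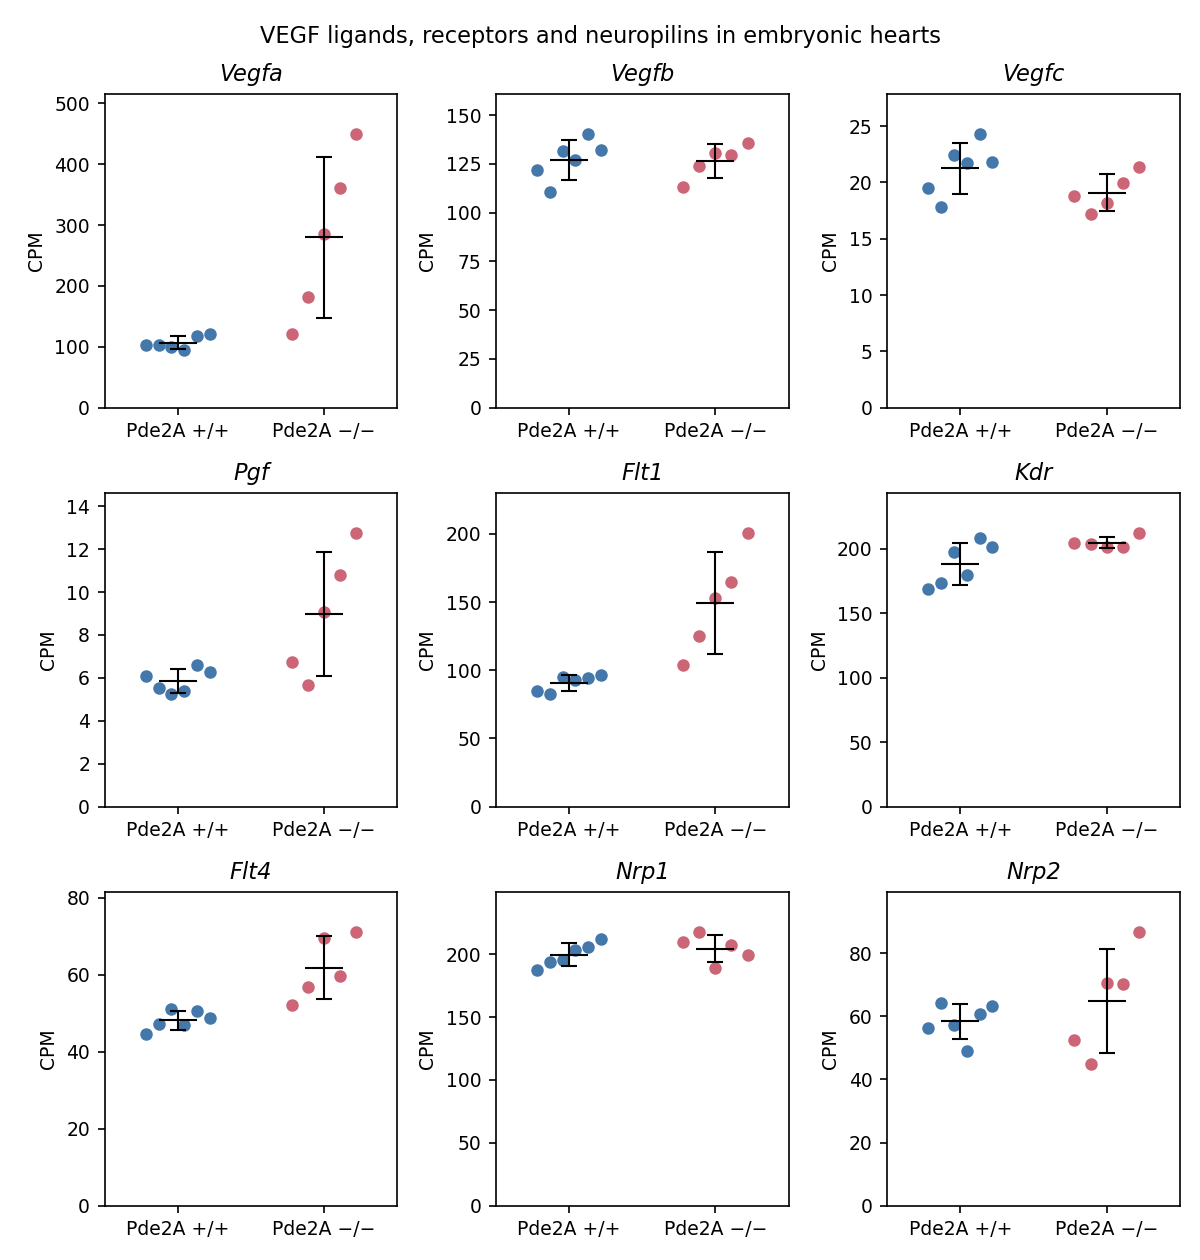
CPM (vertical axis, starting at 0) of the 9 genes in each *Pde2A*+/+ heart (blue) and each *Pde2A*-/- heart (red), with the mean and SD in black. For *Flt1* and *Flt4* the red points lie above all blue points, for *Vegfa* and *Pgf* 4 of 5 do, and for *Vegfb* and *Nrp1* the genotypes overlap.

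**Figure D2:**
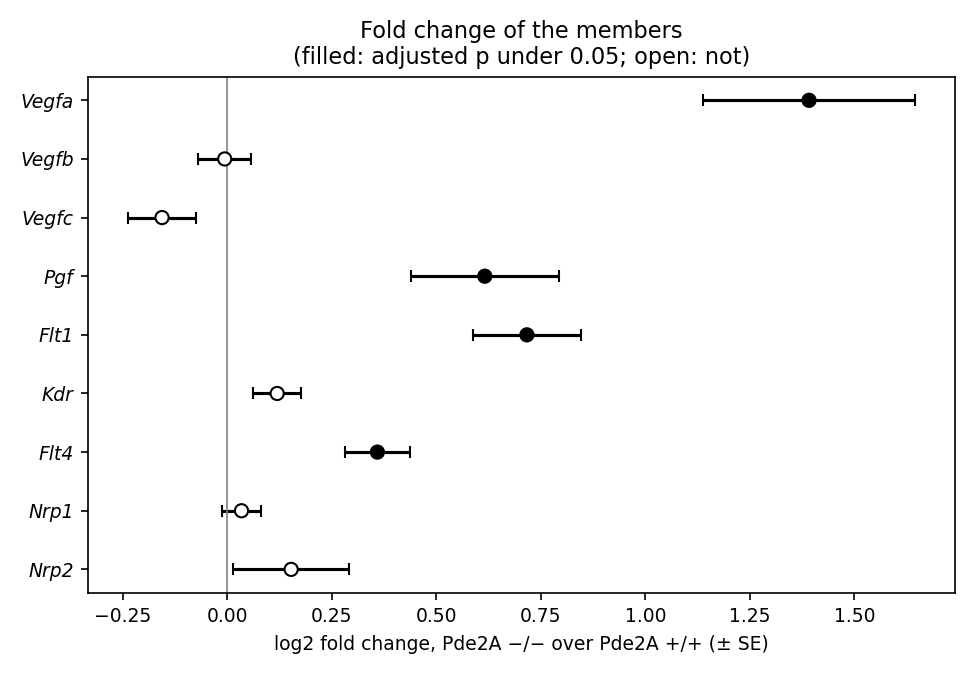
Log2 fold change of *Pde2A*-/- over *Pde2A*+/+ hearts for each of the 9 genes (horizontal axis), with bars for 1 standard error. Filled points passed an adjusted p of 0.05 in edgeR's quasi-likelihood test; they are *Vegfa* at 1.39, *Flt1* at 0.72, *Pgf* at 0.62 and *Flt4* at 0.36.

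To compare levels between genes, CPM was divided by the length of the merged exons in kilobases. In *Pde2A*+/+ hearts *Vegfb* was highest, at 79.2 ± 6.36 CPM per kilobase, followed by *Vegfa* (24.9 ± 2.44), *Kdr* (20.8 ± 1.80) and *Nrp1* (20.4 ± 0.928). The ranges of *Vegfa* and *Kdr*, and those of *Kdr* and *Nrp1*, overlapped between hearts; within hearts *Vegfa* was above *Kdr* in 6 of 6 and *Kdr* above *Nrp1* in 3 of 6. Below them came *Vegfc* (8.68 ± 0.923), then *Flt1* (6.73 ± 0.433), *Flt4* (5.85 ± 0.300) and *Nrp2* (4.93 ± 0.476), of which *Flt1* overlapped with *Flt4* and *Flt4* with *Nrp2*, although each was above the next in 6 of 6 hearts. *Pgf* was lowest, at 2.02 ± 0.188 CPM per kilobase. With the longest protein-coding transcript as length, *Vegfb* stayed first and *Pgf* last, *Kdr* kept position 3, and the other 6 genes changed places, *Vegfa* from position 2 to position 4.

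In *Pde2A*-/- hearts the level of *Vegfa* per length, 65.2 ± 30.9 CPM per kilobase, reached into the range of *Vegfb* (78.9 ± 5.35). *Vegfa* made up 21.7 ± 1.6% of the summed ligand level per length in *Pde2A*+/+ hearts and 40.1 ± 10.6% in *Pde2A*-/- hearts. *Flt1* made up 20.2 ± 0.707% of the summed receptor kinase level in *Pde2A*+/+ and 26.6 ± 4.22% in *Pde2A*-/- hearts, and *Kdr* 62.3 ± 0.946% and 55.3 ± 4.68%.

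The balance between genes within a heart does not depend on how the libraries were scaled, and it was compared through 11 log2 ratios by an exact permutation test, two-sided, with Benjamini-Hochberg adjustment over the 11 ratios. The log2 ratio of *Vegfa* to *Vegfb* was 0.09 in *Pde2A*-/- heart A, 0.55 in B, 1.13 in 14, 1.48 in D and 1.73 in 15, and negative in every *Pde2A*+/+ heart, from −0.42 to −0.10. The difference of the means was 1.25 (exact permutation test, p = 0.0022, the smallest that 5 hearts against 6 allow, adjusted p = 0.0119). The ratio of *Vegfa* to *Vegfc* also separated all hearts and differed by 1.40 (exact p = 0.0022, adjusted p = 0.0119). That of *Vegfa* to *Pgf* differed by 0.69 (exact p = 0.00866, adjusted p = 0.0190), with heart A at 4.15 inside the *Pde2A*+/+ range of 4.08 to 4.25 and the other *Pde2A*-/- hearts between 4.97 and 5.13. Its call was lost without *Pde2A*+/+ heart 7, 11, 8, H or E, where the adjusted p reached 0.0698. The difference there stayed between 0.67 and 0.71. A test of 5 hearts against 5 cannot give a p as small as one of 5 against 6. The ratios of *Vegfa* to *Vegfb* and to *Vegfc* nevertheless kept their calls there (exact permutation test, adjusted p at most 0.0437).

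Among the receptors, the RNA of *Flt1* rose against that of *Kdr*, which does not show the balance of the proteins. The log2 ratio of *Flt1* to *Kdr* was −0.98 in *Pde2A*-/- heart A, −0.70 in B, −0.40 in 14, −0.28 in D and −0.08 in 15, against −1.15 to −0.95 in *Pde2A*+/+ hearts. Heart A lay inside the *Pde2A*+/+ range and the other 4 above it. The means differed by 0.56 (exact permutation test, p = 0.00433, adjusted p = 0.0119). The ratio of *Flt4* to *Kdr* differed by 0.23 (exact p = 0.0195, adjusted p = 0.0357), a call that held only without *Pde2A*-/- heart A or B among the 11 sets with 1 heart left out, and reached an adjusted p of 0.0873 in the others. The difference lay between 0.21 and 0.24 without a *Pde2A*+/+ heart, and between 0.18 and 0.23 without *Pde2A*-/- heart 14, D or 15. With 1 heart fewer, the smallest p that the test allows is larger. In the same 11 sets the ratio of *Flt1* to *Kdr* nevertheless kept its call (exact permutation test, adjusted p at most 0.0437). The ratio of *Nrp1* to *Nrp2* gave no call, with a difference of −0.09 (exact p = 0.665, adjusted p = 0.812).

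Each receptor and neuropilin was also set against the mean log2 CPM of 22 endothelial marker genes. *Flt1* rose against these markers by 0.56 on the log2 scale (exact permutation test, p = 0.00433, adjusted p = 0.0119), with 4 of 5 *Pde2A*-/- hearts above all *Pde2A*+/+ hearts. *Kdr* stood 1.38 above the markers in both genotypes (exact p = 0.991, adjusted p = 0.991). The ratio of *Flt4* to the markers was 0.23 higher in *Pde2A*-/- hearts and missed the threshold after adjustment (exact p = 0.0411, adjusted p = 0.0646), which it passed without *Pde2A*-/- heart A or B (0.0299 and 0.0374) and with the reads of both strands (0.0476). Those of *Nrp1* and *Nrp2* differed by −0.09 and −0.00 (exact p = 0.0519 and 0.983, adjusted p = 0.0714 and 0.991), and that of *Nrp1* passed without *Pde2A*+/+ heart 6 (0.0349).

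The endothelial markers themselves were higher in *Pde2A*-/- hearts in sum. Their summed level was 2583 CPM in *Pde2A*-/- heart A, 2810 in B, 2463 in 14, 2496 in D and 2497 in 15, and from 2008 through a median of 2223 to 2390 CPM in *Pde2A*+/+ hearts. In this sum all *Pde2A*-/- hearts were above all *Pde2A*+/+ hearts, and the highest was heart B. *Vegfa* and *Flt1* were highest in heart 15. On the mean of their log2 CPM the genotypes overlapped, since *Pde2A*-/- hearts 14 and D (0.0917 and 0.0636 above the *Pde2A*+/+ mean) were below *Pde2A*+/+ hearts 6 and E (0.0948 and 0.121). *Pde2A*-/- heart 15 (0.114) was also below *Pde2A*+/+ heart E. Of the 22 markers, 7 rose and 2 fell (all genes tested: 8.93% and 5.67%), with a median log2 fold change of 0.18. DESeq2 called 12 higher (all genes: 2791 of 24177) and edgeR after filterByExpr 11 (2324 of 16853). Without *Pde2A*-/- heart 14, 1 fell (all genes: 450 of 23845). *Clec14a* and *Emcn*, endothelial surface glycoproteins, rose by 0.53 and 0.50 on the log2 scale (SE 0.08 and 0.09), and *Cldn5*, a tight junction protein, fell by 0.79 (SE 0.11). The most abundant marker, *Cdh5*, the adherens junction cadherin, was at 317.2 ± 34.7 CPM in *Pde2A*-/- and 317.1 ± 27.2 CPM in *Pde2A*+/+ hearts. The part of the endothelial cell number in the rises of *Flt1* and *Flt4* was not tested, since whole hearts do not give cell numbers.

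Of 6 lymphatic endothelial markers, 5 were tested, 1 rose and 0 fell (all genes tested: 8.93% and 5.67%), and *Ccl21a* had 0 counts. It was *Lyve1*, also found on macrophages, that rose, by 0.98 on the log2 scale (SE 0.23, adjusted p = 0.0169), and it lost its call without *Pde2A*-/- heart 15 (adjusted p = 0.0507). *Prox1*, the most abundant of them and also a cardiomyocyte gene, had 147.4 ± 26.9 and 120.4 ± 11.02 CPM and passed the adjusted p only with DESeq2 or without *Pde2A*-/- heart A or B. The list summed to 161.6 CPM in *Pde2A*-/- heart A, 157.1 in B, 194 in 14, 215.4 in D and 240.7 in 15, against 147.1 to 170.2 CPM in *Pde2A*+/+ hearts.

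*Vegfa* is a known target of the hypoxia-inducible factors, and 24 other hypoxia-responsive genes were followed beside it. Of these, 21 rose and 0 fell (all genes tested: 8.93% and 5.67%), with a median log2 fold change of 1.10. *Car9*, *Higd1a* and *Pfkfb4* did not pass the test. At an unadjusted p under 0.05 none of the 24 was lower, since all had a positive log2 fold change. *Ndrg1*, a stress-responsive gene, rose by 2.31 on the log2 scale (SE 0.45), *Egln3*, an oxygen-sensing prolyl hydroxylase, by 1.98 (0.35) and *Slc2a3*, a glucose transporter, by 1.68 (0.37). The most abundant, the glycolytic gene *Aldoa*, rose from 1868 ± 140.2 to 2549 ± 511 CPM, and lost its call without *Pde2A*-/- heart 14, D or 15, at an adjusted p of up to 0.0569.

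Among the *Pde2A*-/- hearts, the sum of the hypoxia-responsive genes had the order that *Vegfa* had, and among the *Pde2A*+/+ hearts it had another. Their summed level was 5665 CPM in *Pde2A*-/- heart A, 7356 in B, 9373 in 14, 9716 in D and 11710 in 15, and ran from 5113 through a median of 5729 to 6101 CPM in *Pde2A*+/+ hearts. Heart A lay inside the *Pde2A*+/+ range and the other 4 *Pde2A*-/- hearts above it. On the mean of their log2 CPM the *Pde2A*-/- hearts stood 0.11, 0.45, 1.09, 1.31 and 1.58 above the *Pde2A*+/+ mean, where *Vegfa* stood 0.19, 0.78, 1.43, 1.77 and 2.08 above it. On this scale *Pde2A*+/+ hearts 6, 8, 11, 7, E and H stood at −0.110, −0.051, −0.041, 0.004, 0.078 and 0.121. *Vegfa* stood at −0.098, −0.163, −0.043, −0.036, 0.189 and 0.150 in them. The 2 orders thus differed only in that hearts 6 and 8, and hearts E and H, changed places. Oxygen levels are not part of these counts, and their part in the rise of *Vegfa* was not tested.

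**Figure D3:**
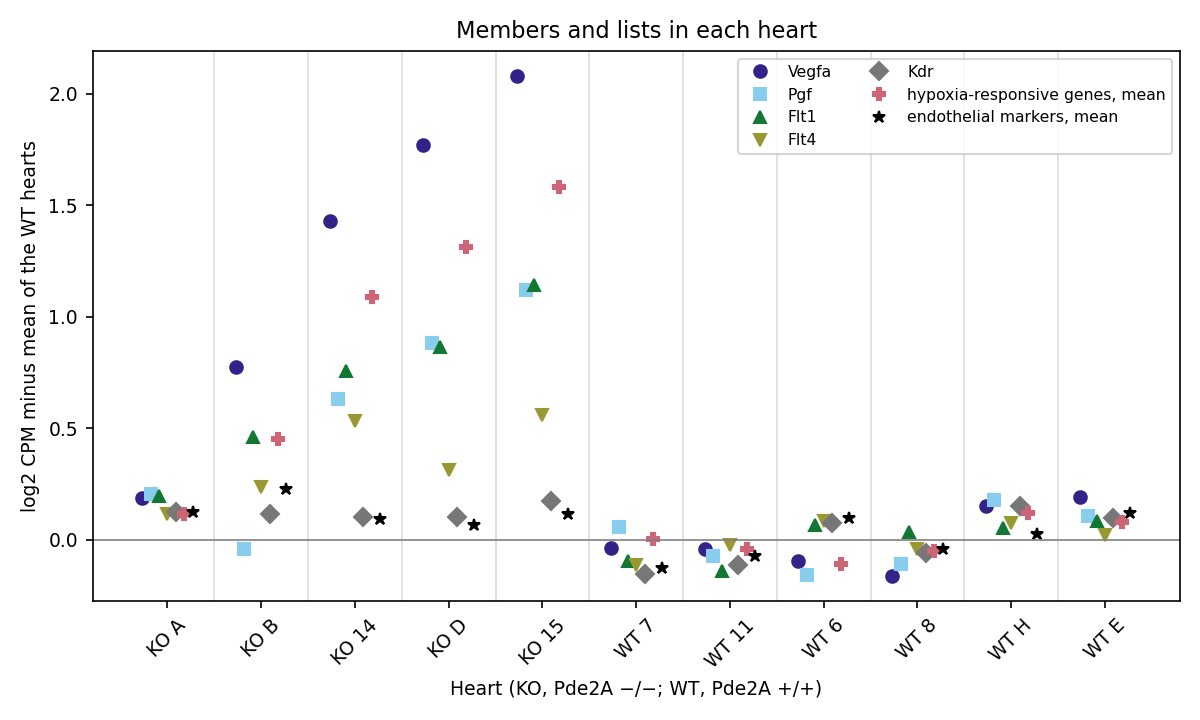
Log2 CPM of *Vegfa*, *Pgf*, *Flt1*, *Flt4* and *Kdr* and the mean log2 CPM of the hypoxia-responsive genes and the endothelial markers in each heart (horizontal axis), minus the mean of the *Pde2A*+/+ hearts (vertical axis). In *Pde2A*-/- hearts A to 15 *Vegfa* runs from 0.19 to 2.08 and the hypoxia-responsive genes from 0.11 to 1.58, while the endothelial markers stay between 0.06 and 0.23.

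The genes whose profile over the 11 hearts was most like that of *Vegfa* were sought among the 14024 genes whose mean reached 1 CPM. The measure was the root mean square difference of log2 CPM, each gene centred on its own mean, and *Vegfa* itself varied by 0.780 about its mean. This measure includes the difference between the genotypes. The rises and calls of genes found near *Vegfa*, *Flt1*, *Pgf* and *Flt4* therefore follow largely from how they were picked and are no separate result. The nearest was *Stc2*, a secreted glycoprotein, at 0.135, followed by *Nceh1* (0.142), *Maff*, a small bZIP transcription factor (0.150), *Rnf225* (0.163) and *Ero1l*, an oxidase of the endoplasmic reticulum (0.165). *Stc2* rose from 16.2 ± 1.25 to 42.1 ± 19.2 CPM, a log2 fold change of 1.38 (SE 0.25). Of these 5 genes, *Ero1l* was also in the list of hypoxia-responsive genes.

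Nearest to *Flt1*, which varied by 0.410, were *Lipe*, the hormone-sensitive lipase (0.0651), *Gstm1*, a glutathione transferase (0.0755), and *Lpl*, the lipoprotein lipase (0.0805). *Lpl* rose from 290.0 ± 27.7 to 454.7 ± 93.5 CPM (log2 fold change 0.65, SE 0.12). Nearest to *Pgf* were *Tet2* (0.0924), *Pnrc1* (0.0926) and *Tet1* (0.0930), of which *Tet2* and *Tet1* encode enzymes that oxidize methylated cytosine; the call of *Tet1* was lost without any 1 heart except *Pde2A*-/- A and B (adjusted p up to 0.119), that of *Pnrc1* without *Pde2A*-/- heart D or 15 (up to 0.0661) and that of *Tet2* without heart D (0.0599). Nearest to *Flt4* were *Mocs1* (0.0504), *Mvp*, the major vault protein (0.0507), and *Snx25* (0.0619); the call of *Mocs1* was lost without *Pde2A*-/- heart 14, D or 15 or *Pde2A*+/+ heart 7 or 8 (up to 0.0696), and that of *Snx25* without the same hearts or *Pde2A*+/+ heart H (up to 0.0777).

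Further genes around the ligands and co-receptors were followed. Of *Vegfd*, *Ccbe1* and *Adamts3*, a further ligand and 2 genes for the maturation of VEGFC, *Adamts3*, the protease, rose from 9.16 ± 0.744 to 12.0 ± 1.33 CPM (log2 fold change 0.39, SE 0.09, adjusted p = 0.0116), with all *Pde2A*-/- hearts above all *Pde2A*+/+ hearts. *Vegfd* (log2 fold change 0.36, SE 0.16, adjusted p = 0.156) and *Ccbe1* (0.01, SE 0.54, adjusted p = 0.996) did not pass the test. Of 12 class 3 semaphorins and plexins, which share the neuropilins as receptors or partners, 2 rose, 2 fell and 8 did not pass the test (all genes tested: 8.93% and 5.67%), with a median log2 fold change of 0.10. *Plxnd1*, an endothelial semaphorin receptor and the most abundant of them, rose by 0.26 (SE 0.06) and *Sema3b* by 0.42 (0.12) on the log2 scale. *Sema3g*, a semaphorin of arterial endothelium, fell by 0.79 (SE 0.15) and *Plxna1* fell by 0.28 (0.08). The call of *Sema3b* was lost with the naming style of the hearts as a covariate and without *Pde2A*-/- heart B, D or 15 or *Pde2A*+/+ heart 7, 11, 8, H or E (adjusted p up to 0.0828). That of *Plxna1* was lost without *Pde2A*-/- heart 14 or D or *Pde2A*+/+ heart 11, 6, 8 or E (up to 0.0769).

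Downstream of the receptors, 5 of 41 genes of signal transduction rose, 3 fell and 33 did not pass the test, beside 8.93% higher and 5.67% lower of all genes tested, which change with the settings as given above. Their median log2 fold change was −0.01, with 20 of the 41 above 0. The largest rises were those of *Ptgs2*, the inducible cyclooxygenase, from 0.258 ± 0.128 to 0.729 ± 0.304 CPM (log2 fold change 1.49, SE 0.37), *Sphk1*, the sphingosine kinase (0.84, 0.17), and *Map2k1*, the kinase MEK1 (0.35, 0.10). *Ptgs2* had between 4 and 39 counts per heart. *Akt1*, the most abundant, fell by 0.28 (SE 0.08) on the log2 scale. *Ptgs2* lost its call without *Pde2A*-/- heart 14, D or 15, at an adjusted p of up to 0.0575. *Map2k1* lost its call without *Pde2A*-/- heart 14, D or 15 or *Pde2A*+/+ heart 11 or E (up to 0.0769), and *Akt1* without *Pde2A*-/- heart 14, D or 15 or *Pde2A*+/+ heart 6, 8 or H (up to 0.0865). DESeq2 called 6 of the 41 genes lower (all genes: 2354) and edgeR after filterByExpr 5 (1884 of 16853). Without *Pde2A*-/- heart A edgeR called 5 lower (all genes: 2165), and without heart B 6 (1955). Without *Pde2A*-/- heart 14, D or 15, 3 were called higher (all genes: 1408, 1288 and 1381).

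Of 20 genes known to respond to VEGF in cultured endothelium, 7 rose, 1 fell and 12 did not pass the test (all genes tested: 8.93% and 5.67%), with a median log2 fold change of 0.38. The 12 were *Esm1*, *Apln*, *Angpt2*, *Dll4*, *Rcan1*, *Egr3*, *Nr4a2*, *Pdgfb*, *Unc5b*, *Hlx*, *Plaur* and *Sele*. *Kcne3*, a potassium channel subunit, rose from 5.43 ± 0.982 to 16.8 ± 10.4 CPM (log2 fold change 1.62, SE 0.33), *Icam1*, an adhesion molecule, by 1.46 (0.20) and *Nr4a1*, an immediate early transcription factor, by 1.14 (0.31). *Nr4a1* lost its call without *Pde2A*-/- heart D or 15 or *Pde2A*+/+ heart 8 or H (adjusted p up to 0.0845). The 1 gene that fell was *Cxcr4*, a chemokine receptor, by 0.66 on the log2 scale (SE 0.12, adjusted p = 0.00405), named after its value was seen. The most abundant, *Rcan1*, a calcineurin inhibitor, had 218.2 ± 43.4 and 173.6 ± 24.1 CPM and passed only with DESeq2 or without *Pde2A*-/- heart A. The summed level of the list was 889 CPM in *Pde2A*-/- heart A, 987 in B, 1216 in 14, 1287 in D and 1467 in 15, against 818 to 946 CPM in *Pde2A*+/+ hearts. Heart A lay within the *Pde2A*+/+ range and the others above it. The part of VEGF in the changes of these genes was not tested.

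The other cell types of the heart were followed through marker lists, whose counts stand beside 8.93% higher and 5.67% lower of all genes tested. These shares change with the settings as given above. Of 17 cardiomyocyte markers 1 rose and 5 fell (median log2 fold change −0.22). The number that fell was 9 with DESeq2, 10 with the naming style as a covariate (where 2 rose), 9 without *Pde2A*-/- heart B and 8 without *Pde2A*+/+ heart 11. *Nppa*, the atrial natriuretic peptide, rose by 0.87 (SE 0.19), *Tcap* fell by 0.88 (0.13) and *Ttn* by 0.51 (0.11) on the log2 scale, and *Myh7*, the most abundant, had 13137 ± 1646 and 13839 ± 2618 CPM. Their summed level overlapped between the genotypes, from 45040 to 51270 in *Pde2A*-/- and from 44300 to 58900 CPM in *Pde2A*+/+ hearts. Of 10 fibroblast markers 4 rose (median 0.22), with *Postn* at 0.42 (0.08), *Ogn* at 0.42 (0.12) and *Tcf21* at 0.30 (0.07), and the summed levels overlapped, from 7181 to 11600 and from 6048 to 11160 CPM. The most abundant of these, *Col3a1*, had 3109 ± 514 and 2846 ± 468 CPM. *Ogn* lost its call without *Pde2A*-/- heart 14, D or 15 or *Pde2A*+/+ heart 7, 6, H or E (adjusted p up to 0.104), and *Tcf21* without *Pde2A*-/- heart 14 (0.0501). Of 9 smooth muscle and pericyte markers 2 fell, *Cnn1* by 0.38 (0.11) and *Kcnj8* by 0.31 (0.10), and *Acta2*, the most abundant, had 999 ± 97.0 and 1207 ± 170.1 CPM and was called lower only with DESeq2 (adjusted p = 0.0294) or without *Pde2A*-/- heart B (0.0458) or *Pde2A*+/+ heart 11 (0.0250). Of 7 epicardial markers 5 were above 0 (median 0.22), 0 were called higher and *Tbx18* alone was called lower, where DESeq2 and edgeR without *Pde2A*-/- heart A called 1 and 2 higher, and edgeR had 1 higher at an unadjusted p under 0.05. *Tbx18* fell by 0.31 (0.10), and *Upk3b*, the most abundant, had 136.3 ± 28.4 and 130.5 ± 56.5 CPM. The call of *Cnn1* was lost without *Pde2A*-/- heart B, D or 15 or *Pde2A*+/+ heart 7, 6, 8 or H (up to 0.0985), that of *Kcnj8* without any 1 heart except *Pde2A*-/- D (up to 0.111), and that of *Tbx18* without *Pde2A*-/- heart 14, D or 15 or *Pde2A*+/+ heart 7, 11, 6 or 8 (up to 0.116). *Tbx18* also lost its call with the naming style as a covariate (0.0786), where 2 epicardial markers were called higher, and *Kcnj8* without the filter on counts (0.0599), with the reads of both strands (0.0511) and without the erythroid and globin genes (0.0513).

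Many markers of blood cells were also higher in *Pde2A*-/- hearts. Of 14 macrophage markers 13 rose and 1 did not pass the test (all genes tested: 8.93% higher and 5.67% lower), with a median log2 fold change of 0.92. Their summed level was 264.7 CPM in *Pde2A*-/- heart A, 293.2 in B, 335.8 in 14, 331.1 in D and 336.6 in 15, against 131.8 to 202.6 CPM in *Pde2A*+/+ hearts. The largest rises were those of *Fcgr3* (1.43, SE 0.18), *C1qc* (1.12, 0.13) and *C1qb* (1.001, 0.14), and *Csf1r*, the most abundant, rose from 42.5 ± 7.84 to 66.5 ± 7.26 CPM. Of 10 erythroid markers 8 rose (all genes tested: 8.93%), *Alas2* did not pass the test and went the other way (log2 fold change −0.60, SE 0.32), and *Ahsp* was not matched. *Slc4a1*, the most abundant, rose from 54.2 ± 24.6 to 380.8 ± 94.8 CPM. The erythroid sum was 662.5 CPM in *Pde2A*-/- heart A, 1263 in B, 1060 in 14, 995.9 in D and 1095 in 15, and from 212.1 to 628.1 CPM in *Pde2A*+/+ hearts. The largest of these rises were those of *Hemgn* (4.94, SE 0.38), *Rhag* (4.40, 0.37) and *Ermap* (4.05, 0.36). Erythroid and globin genes together made up 0.635 to 0.979% of the counts in *Pde2A*-/- and 0.470 to 1.71% in *Pde2A*+/+ hearts, so that this share was not higher in *Pde2A*-/- hearts.

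Of 8 megakaryocyte and platelet markers, cells that carry VEGFA in their granules, 7 were tested. Of these, 2 rose and 0 fell (all genes tested: 8.93% and 5.67%), and *Ppbp* rose by 1.81 (SE 0.25) and *Pf4* by 1.24 (0.16). The summed level of the list was 35.3 CPM in *Pde2A*-/- heart A, 37.0 in B, 29.1 in 14, 30.6 in D and 41.9 in 15, against 14.8 to 25.9 CPM in *Pde2A*+/+ hearts. The most abundant, *Itga2b*, had 14.7 ± 1.68 and 11.4 ± 2.37 CPM and was called higher only with DESeq2 (adjusted p = 0.0358) or without *Pde2A*+/+ heart 11 (0.0344), and *Gp1bb* had at most 5 counts per heart. All *Pde2A*-/- hearts were above all *Pde2A*+/+ hearts in the sums of these 3 blood cell lists. With the erythroid and globin genes left out before normalization, the log2 fold change of *Vegfa* was 1.40. The part of macrophages and platelets in the rises was not tested.

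Markers of liver, lung, thymus and skeletal muscle were read to see what else the hearts held. Of 25 such genes tested, edgeR and DESeq2 each called 0 at an adjusted p under 0.05. At an unadjusted p under 0.05 edgeR had 2 higher and 6 lower, without a share of all genes to set beside them. Without *Pde2A*-/- heart D 2 liver genes and with the naming style as a covariate 1 were called lower, and 1 thymus gene without *Pde2A*+/+ heart 7 and 1 skeletal muscle gene without *Pde2A*-/- heart A were called higher. The liver markers, of which *Afp* was the most abundant, summed to 36.6 CPM in *Pde2A*-/- heart D and to 111.5 in *Pde2A*+/+ heart E, 42.6 in 11 and 35.7 in H, and lay between 1.65 and 2.95 CPM in the other hearts. The lung markers, led by *Scgb3a2*, reached 23.1 CPM in *Pde2A*+/+ heart 11 and the thymus markers, led by *Lck*, 81.7 CPM in *Pde2A*+/+ heart 7. The skeletal muscle markers, with *Acta1* most abundant, ran from 94.9 to 252 CPM in *Pde2A*-/- and from 123 to 183 CPM in *Pde2A*+/+ hearts, and *Pde2A*-/- hearts B (229.3) and D (252.1) were above every *Pde2A*+/+ heart.

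The promoters of the 9 genes were read from RefSeq (GRCm38.p6), which gave 11 windows of 300 bases, from 250 before to 50 after a start site, with 2 windows each for *Vegfa* and *Pgf*. They were searched on both strands for ACGTG and GCGTG, core letters of hypoxia response elements, and for TGACGTCA, the cAMP response element, a palindrome. Of 32851 promoter windows, 19.6% held ACGTG, 32.4% GCGTG and 1.79% TGACGTCA. The full TGACGTCA was found in the window of *Flt1*, at chr5:147726085-147726092, starting 81 bases before the start site, and in no other of the 11 windows. ACGTG was found in the second window of *Vegfa* only, at chr17:46025370-46025374, which lies in an exon inside the gene, and GCGTG in at least 1 window of *Vegfa*, *Vegfb*, *Pgf*, *Flt1*, *Kdr*, *Nrp1* and *Nrp2*. The first windows of *Vegfa* and *Flt4* held none of the 3, which says only that these letters are not in these 300 bases. Matches are descriptions of letters; binding cannot be read from these data.

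The first windows of the 4 genes that rose are shown so that their letters can be compared, 5′ to 3′ on the strand of the gene, with matches to the 3 motifs in capitals. They lie at chr17:46032328-46032627 (*Vegfa*, minus), chr12:85177264-85177563 (*Pgf*, minus), chr5:147725962-147726261 (*Flt1*, minus) and chr11:49609429-49609728 (*Flt4*, plus) of GRCm38.p6.
Vegfa: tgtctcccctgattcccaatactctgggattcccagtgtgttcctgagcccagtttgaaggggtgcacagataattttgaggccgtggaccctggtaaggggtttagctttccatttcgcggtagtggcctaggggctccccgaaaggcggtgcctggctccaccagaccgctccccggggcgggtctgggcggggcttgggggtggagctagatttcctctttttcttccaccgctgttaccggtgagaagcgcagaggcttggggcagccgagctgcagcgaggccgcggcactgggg
Pgf: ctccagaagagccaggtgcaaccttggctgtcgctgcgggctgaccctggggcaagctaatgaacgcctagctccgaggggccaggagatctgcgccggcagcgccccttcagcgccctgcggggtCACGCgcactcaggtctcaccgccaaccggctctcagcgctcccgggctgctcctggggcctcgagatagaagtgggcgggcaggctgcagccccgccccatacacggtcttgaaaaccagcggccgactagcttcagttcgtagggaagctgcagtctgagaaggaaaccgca
Flt1: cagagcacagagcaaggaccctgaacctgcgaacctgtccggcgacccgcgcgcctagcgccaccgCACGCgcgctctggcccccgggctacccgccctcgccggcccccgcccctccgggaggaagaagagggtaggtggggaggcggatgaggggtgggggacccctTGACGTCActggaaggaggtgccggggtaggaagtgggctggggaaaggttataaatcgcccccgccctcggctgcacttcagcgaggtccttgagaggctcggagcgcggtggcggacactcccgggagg
Flt4: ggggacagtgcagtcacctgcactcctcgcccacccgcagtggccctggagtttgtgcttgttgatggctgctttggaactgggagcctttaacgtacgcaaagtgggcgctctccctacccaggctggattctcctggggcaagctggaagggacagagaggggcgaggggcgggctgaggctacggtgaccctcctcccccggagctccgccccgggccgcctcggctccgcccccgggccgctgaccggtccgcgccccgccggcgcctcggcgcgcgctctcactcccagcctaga

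The counts are per gene and do not separate the splice forms of *Vegfa*, which differ in the exons that bind heparan sulfate. The study's RT-qPCR primers for *Vegfa* are shown with the transcripts they fall on, since an amplicon of several lengths bears on which forms were read. On the GENCODE M21 transcripts, 5 of 8 protein-coding forms hold both primers and 3 hold the forward primer alone. The amplicon was 143 bases in 2 of these forms, 197 bases in 1 and 215 bases in 2, and the reverse primer lies in exon 6 or 7 at chr17:46021088-46021107. In these 5 forms the forward primer starts at the last base of an exon, chr17:46025347, and continues in the next exon up to base 46024502.
Forward primer: gatcatgcggatcaaacctc
Reverse primer: aatgctttctccgctctgaa

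The hearts are named with letters or numbers, and whether these mark different sessions is not stated. Within the hearts named by letters (3 *Pde2A*-/- and 2 *Pde2A*+/+) *Vegfa* was 0.74 and *Flt1* 0.44 higher in *Pde2A*-/- hearts on the log2 scale. Within those named by numbers (2 *Pde2A*-/- and 4 *Pde2A*+/+) the differences were 1.84 and 0.98. *Flt4* differed by 0.17 and 0.57, and *Pgf* by 0.21 and 0.94. These 4 differences were positive in both sets, and larger among the hearts named by numbers. Of the other 5 genes, *Vegfb* (−0.16 and 0.12), *Kdr* (−0.01 and 0.20), *Nrp1* (0.02 and −0.01) and *Nrp2* (−0.17 and 0.47) differed in sign between the sets, and *Vegfc* was lower in both (−0.31 and −0.04).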

How the data were processed

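Stranded mRNA libraries of 11 hearts (5 *Pde2A*-/-, 6 *Pde2A*+/+) were sequenced. By the submitters' notes, STAR on GRCm38 (version not given in the sources used here) gave the counts per gene, which the authors deposited as whole numbers for each strand setting, without normalization; a read on more than one gene is not counted. Here the counts on the strand of the gene were used, and GENCODE M21 named 55141 of 55487 identifiers. Depth was 35865537 to 42835382 counts per heart; counting error is small beside the spread between hearts except for genes of few counts.

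A gene was tested from a total of 10 counts upwards, and genotypes were compared with edgeR 4.0.16 (TMM, quasi-likelihood test, Benjamini-Hochberg over all 24177 genes) in R 4.3.3, after the step had been tested on simulated data. CPM are TMM-normalized. Ratios use log2 CPM with a prior count of 2 and exact permutation tests, two-sided. Tables used Python 3.11.15, pandas 2.3.3 and numpy 2.4.6, and plots matplotlib 3.10.9.

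The genes named are the 9 VEGF genes, *Pde2a*, up to 3 genes with the largest change past an adjusted p of 0.05 and the most abundant gene of every other list, and, by root mean square difference, the 5 genes most like *Vegfa* and the 3 most like each other VEGF gene that passed; the remaining ones named were picked after their values were seen. The members and the 19 other lists were chosen with earlier results of these data known, and 1 of the 19 is not reported. Alternatives were DESeq2 1.42.0, its size factors, edgeR's filterByExpr, no filter, both strands, the naming style as a covariate, erythroid and globin genes left out, a 1.5-fold threshold, a prior count of 0.5, transcript length, and each heart left out. Promoter sequences are from RefSeq GRCm38.p6.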

Additional observations from a re-analysis of the deposited data

Results flagged for a closer look

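A single heart far from the others of its genotype was looked for in 78 groups of values, of which chance gives about 1 in 20, and 8 were found. The log2 ratio of *Vegfa* to *Pgf* was 4.153 in *Pde2A*-/- heart A, far below the 4.97 to 5.13 of the other *Pde2A*-/- hearts. The log2 ratio of *Kdr* to the endothelial markers was 1.508 in *Pde2A*+/+ heart H, far above the 1.34 to 1.36 of the others. The VEGF-responsive genes summed to 818.2 CPM in *Pde2A*+/+ heart 11, far below the 923 to 946 CPM of the others. The liver markers summed to 36.64 CPM in *Pde2A*-/- heart D, against 1.65 to 2.37 CPM in the other *Pde2A*-/- hearts, and to 111.5 CPM in *Pde2A*+/+ heart E, against 1.75 to 42.6 CPM. The lung markers summed to 1.418 CPM in *Pde2A*-/- heart 14, against 0.472 to 0.679 CPM, and to 23.13 CPM in *Pde2A*+/+ heart 11, against 0.384 to 0.704 CPM. The thymus markers summed to 81.7 CPM in *Pde2A*+/+ heart 7, against 1.84 to 2.56 CPM. Reads on the strand opposite to *Flt4*, used only where both strands were counted, had a mean of 0.5765 CPM in *Pde2A*-/- hearts, above the 0.104 to 0.348 CPM of the *Pde2A*+/+ hearts (exact permutation test, p = 0.00216, the smallest possible, unadjusted for the 9 genes read).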

How the results depend on the processing

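The number of VEGF genes called higher was 3 to 4 with 1 heart left out and 4 with every other alternative run, and the number called lower was 0 in all. With a threshold of 1.5-fold in place of 2-fold, 3 genes were called in place of 1. The share of all genes tested at 1.5-fold is not given, so this count has no background. The log2 fold change of *Vegfb* turned to 0.001036 with the reads of both strands, and ran from −0.04362 to 0.03629 with 1 heart left out. That of *Cdh5* turned to −0.0005106 with DESeq2, −0.0005149 with its size factors, −0.004731 with filterByExpr and −0.04229 with the naming style as a covariate, and ran from −0.05235 to 0.03716 with 1 heart left out. With 1 heart left out the log2 fold change also changed sign for *Upk3b* (−0.07077 to 0.2311), for *Scgb3a2*, the most abundant lung marker (−4.906 to 1.868), and for *Lck*, the most abundant thymus marker (−1.178 to 0.5039). So did the differences in the log2 ratio of *Nrp1* to *Nrp2* (−0.2334 to 0.0361), of *Kdr* to the endothelial markers (−0.01618 to 0.02676) and of *Nrp2* to these markers (−0.1199 to 0.1465). Over all results and alternatives, 29 values changed sign, 118 lost a call, 15 gained one and 71 moved, counts of genes by more than 1.5 times; the other 2003 kept their sign and call or, for counts of genes, stayed within 1.5 times, such as hypoxia-responsive genes called higher (15 to 23 with 1 heart left out). The alternatives for the other lists and the other named genes were added after seeing the data. Limits are that 5 and 6 whole hearts were compared, that sex, litter and batch of a heart are not stated, that counts do not separate splice forms or cell types, and that liver markers were high in 4 hearts, lung markers in 1 and thymus markers in 1, and skeletal muscle markers were highest in *Pde2A*-/- hearts B and D; the cause was not tested.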
